A study of Mus musculus with 9 samples.

Results

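On bead arrays of mouse spermatids, 32 probes were detected on every wild type and Wip1-/- array and on none of the arrays labelled Wip1-/- Atm+/-. These probes belong to 29 genes. They were chosen by the detection p-value, which the scanner gives for each probe as the chance that background alone is as bright. A probe was taken if it had 1 gene symbol, a detection p under 0.01 on all 6 wild type and Wip1-/- arrays, and a detection p of 0.05 or more on all 3 arrays labelled Wip1-/- Atm+/-. Of 33292 probes with 1 gene symbol and complete scanner values, 10345 were present on the 6 wild type and Wip1-/- arrays, and 0.309% of those met the full rule. The low values on the arrays labelled Wip1-/- Atm+/- are therefore the basis of the choice and are given as a description, with no test. The same rule turned round found 2 probes absent only in Wip1-/- and 29 absent only in wild type. It found 19 probes present only in the group labelled Wip1-/- Atm+/-, 10 present only in Wip1-/- and 0 present only in wild type.

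The cells are spermatids, the haploid germ cells that mature into sperm after meiosis. Total RNA was hybridized to 9 arrays, 3 each from the genotypes labelled Wip1-/- ATM +/-, Wip1-/- and Wip1+/+. All 6 arrays of the first pair of genotypes share the Wip1-/- label, and the group labelled Wip1-/- Atm+/- adds loss of 1 allele of Atm. The labels do not say which promoter, strain, age or cell sort lies behind the cells, nor whether the 3 arrays of a genotype come from separate animals, so p-values measure only the spread between arrays. The series was made, by its title, to study how Wip1 bears on the silencing of heterochromatin by DNA methylation, with ATM and BRCA1 in between.

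Wip1, encoded by Ppm1d, is a phosphatase that removes phosphate groups placed by ATM, the kinase that starts the response to DNA double-strand breaks. In the testis, spermatogonia divide by mitosis and replicate their DNA, spermatocytes carry out meiosis, and spermatids no longer replicate DNA while they rebuild the nucleus and grow the flagellum. A probe of an array reads a short stretch near a given transcript end, so a probe near background shows that this stretch was not measured above background, whatever the rest of the gene does.

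Ppm1d was checked first. Its brightest probe had a log2 level of 9.46 ± 0.07 on the arrays labelled Wip1-/- Atm+/-, 8.70 ± 0.15 on Wip1-/- arrays and 9.35 ± 0.18 on wild type arrays (SD, n = 3 each). It was lower in Wip1-/- than in wild type (limma adjusted p = 0.00639). Between the group labelled Wip1-/- Atm+/- and wild type it did not pass the test (limma adjusted p = 0.611), although both mutant groups carry the Wip1-/- label. A second probe of Ppm1d, ILMN_1226504, went the other way in Wip1-/-, with 6.02 ± 0.18 against 4.79 ± 0.14 in wild type. It was detected on all 3 Wip1-/- arrays and on 0 arrays of wild type and of the group labelled Wip1-/- Atm+/- (4.92 ± 0.24). Its difference is therefore limited by background. Which part of the gene the probes read is not given, so they do not check the deleted part and do not settle the labels. The brightest probe of Atm, ILMN_2492491, had 6.37 ± 0.07 on the arrays labelled Wip1-/- Atm+/-, against 7.89 ± 0.03 on Wip1-/- arrays and 7.09 ± 0.12 on wild type arrays (limma adjusted p = 0.000646 and 0.000978 against wild type). A further Atm probe, ILMN_1258206, moved the opposite way, with 7.27 ± 0.12 in the group labelled Wip1-/- Atm+/- and 6.24 ± 0.24 in wild type.

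Across the 9 arrays between 37.9% and 42.0% of 43582 probes were detected at a p under 0.05, and the median signal ran from 100.5 to 121.8. Across probes, the correlation of log2 levels was 0.987 to 0.993 within a genotype and 0.958 to 0.982 between genotypes. All 14 spermatid markers measured were detected on every array, with summed levels on the linear scale of 333309 to 344147 in the group labelled Wip1-/- Atm+/-, 315002 to 323203 in Wip1-/- and 332918 to 347082 in wild type. Among markers of other cells, 12 of 13 tested peritubular and stromal markers rose in the group labelled Wip1-/- Atm+/- against wild type and 0 fell. Their sums were 29833 to 30033 in the group labelled Wip1-/- Atm+/-, 12645 to 13720 in Wip1-/- and 5500 to 5619 in wild type. Col1a2 and Col3a1, counted among the 12, were detected only on the 3 arrays labelled Wip1-/- Atm+/- and entered the test through them. In wild type they lay near background, at 4.97 ± 0.11 and 4.73 ± 0.02, so their differences do not size a rise. All 4 erythroid markers tested and 3 of 8 Sertoli markers also rose in the group labelled Wip1-/- Atm+/-, where 0 of either list fell. Of the lists of endothelial, macrophage, lymphocyte, Leydig and epithelial markers, 1 of 6, 1 of 7, 1 of 4, 0 of 1 and 0 of 4 tested genes rose, and 0, 1, 2, 0 and 0 fell. Trf (Sertoli), Eng and Cd2, counted among those that rose, lay near background in wild type, at 5.34 ± 0.20, 5.20 ± 0.35 and 5.24 ± 0.17. Cd3e, counted among those that fell, lay near background in the group labelled Wip1-/- Atm+/-, at 4.98 ± 0.07. In Wip1-/- against wild type all 6 endothelial markers tested rose, with a median difference of 0.98. All 6 were detected on all 3 Wip1-/- arrays, but only 1 was detected on all 3 wild type arrays. Esam was detected on 3 arrays and entered the test through Wip1-/- alone, with 5.02 ± 0.30 in wild type. Most of these endothelial differences are therefore limited by background and do not size a rise. In the same comparison 9 of 13 peritubular and stromal markers rose and 0 fell, with a median of 1.11, and 4 of 14 spermatid markers fell and 0 rose. Among defining markers, Star and Cyp17a1 of Leydig cells, Epcam and Krt18 of epithelium and Ptprc of leukocytes were undetected on all 9 arrays. Insl3 of Leydig cells, Krt8 of epithelium, Cst11 of epididymis, Cd3d of lymphocytes, and C1qb and Fcgr3 of macrophages were detected on all 9. The part of these cells in the results below was not tested, and in such bulk RNA fewer cells of a type and less RNA per cell cannot be told apart.

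The 32 probes were dim as a group, and a few were bright. Their mean scanner signal in wild type had a median of 187 and ran from 148 to 1134, against a median of 494 for all single-symbol probes present on the 6 wild type and Wip1-/- arrays. On the 3 arrays labelled Wip1-/- Atm+/- the dimmest detected probe had a signal of 130.0, 116.4 and 114.3, and the members lay below that. For 25 of the 32 probes the wild type mean was under 250. In 6 probes the lowest Wip1-/- or wild type signal was more than 2 times the highest signal of the arrays labelled Wip1-/- Atm+/-. The detection p was above 0.3 on all 3 of those arrays for 4 probes, while 17 probes came under 0.07 on 1 or more of them. Fold changes against a group below background are lower bounds here. They set the mean log2 level of Wip1-/- or wild type against a floor for each array labelled Wip1-/- Atm+/-. This floor was the lowest level among probes detected there at a p under 0.05, or the probe's own level where that was higher. The mean of these floors over the 3 arrays was used. Against wild type the bounds had a median of 2.48 and ran from 1.62 to 21.5, with 22 of 32 above 2. These bounds depend on the background step, and without it their median was 1.56. Against Wip1-/- their median was 2.40, their lowest value was 1.33 and 26 of 32 were above 2. Whether Wip1-/- and wild type overlap is given throughout for the normalized log2 levels, since the scanner signals are not scaled between arrays.

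A group of 3 members serves DNA replication or the genes around it. Mcm2 is a subunit of the MCM ring, the helicase that opens DNA at replication origins. Pclaf binds the sliding clamp PCNA at replication forks, and Cdca7 is a zinc finger protein whose human form works with the remodeller HELLS to keep DNA methylation at heterochromatin. Mcm2 (ILMN_1250907, chromosome 6) gave signals of 114, 104 and 90.4 on the arrays labelled Wip1-/- Atm+/-, 199, 183 and 168 on Wip1-/- arrays and 183, 144 and 167 on wild type arrays. Cdca7 (ILMN_1221568, chromosome 2) gave signals of 115, 111 and 104 on the arrays labelled Wip1-/- Atm+/-, 289.5, 245 and 243 on Wip1-/- arrays and 216, 232 and 214 on wild type arrays. Pclaf (ILMN_1223045, chromosome 9), named after its values were seen, gave signals of 103, 92.2 and 96.9 on the arrays labelled Wip1-/- Atm+/-, 198, 189 and 183 on Wip1-/- arrays and 169, 149 and 170.1 on wild type arrays. In all 3 genes the normalized levels of Wip1-/- and wild type overlapped, and both lay above every array labelled Wip1-/- Atm+/-. The level of Cdca7 was at least 3.28-fold lower than in wild type and at least 3.29-fold lower than in Wip1-/-, and the bounds against wild type were 1.99 for Mcm2 and 1.98 for Pclaf. None of the 3 genes passed the test in Wip1-/- against wild type, with log2 differences of -0.05 ± 0.15 (SE, n = 3 each, limma adjusted p = 0.86) for Mcm2, 0.05 ± 0.12 (SE, n = 3 each, limma adjusted p = 0.791) for Pclaf and 0.00 ± 0.14 (SE, n = 3 each, limma adjusted p = 0.985) for Cdca7. The array holds no other probe of any of the 3.

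The promoters of these 3 genes are shown because genes of the replication machinery are known targets of E2F factors, whose site is read here as the letters TTTGGCGC, TTTCGCGC, TTTCCCGC or TTTGCCGC on both strands. Each window holds 300 bases, 250 before and 50 after the RefSeq start in GRCm38.p6, 5′ to 3′ on the gene's strand, with any match in capitals. Mcm2 lies at chr6:88898731-88899030 on the minus strand, Pclaf at chr9:65890073-65890372 on the plus strand and Cdca7 at chr2:72475969-72476268 on the plus strand.
Mcm2: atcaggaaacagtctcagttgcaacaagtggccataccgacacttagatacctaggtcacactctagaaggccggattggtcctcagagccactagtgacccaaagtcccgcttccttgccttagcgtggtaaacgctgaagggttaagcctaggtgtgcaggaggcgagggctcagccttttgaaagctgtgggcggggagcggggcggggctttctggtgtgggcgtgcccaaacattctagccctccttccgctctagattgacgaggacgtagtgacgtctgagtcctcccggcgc
Pclaf: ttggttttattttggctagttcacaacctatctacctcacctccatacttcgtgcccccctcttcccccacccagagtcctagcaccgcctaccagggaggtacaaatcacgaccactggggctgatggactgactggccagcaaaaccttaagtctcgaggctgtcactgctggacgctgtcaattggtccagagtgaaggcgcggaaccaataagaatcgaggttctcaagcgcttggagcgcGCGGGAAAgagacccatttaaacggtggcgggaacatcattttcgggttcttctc
Cdca7: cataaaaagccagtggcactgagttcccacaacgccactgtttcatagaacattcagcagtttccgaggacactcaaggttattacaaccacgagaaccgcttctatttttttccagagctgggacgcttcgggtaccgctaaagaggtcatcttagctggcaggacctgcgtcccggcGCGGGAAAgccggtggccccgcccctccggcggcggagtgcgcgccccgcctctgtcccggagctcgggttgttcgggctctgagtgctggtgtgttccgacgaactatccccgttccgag
Pclaf and Cdca7 each hold GCGGGAAA, the reverse complement of TTTCCCGC, starting at -5 and -71 from the transcription start, and the Mcm2 window holds none of these letters. Of the 35 windows of 25 member genes in the table, 2 hold such a match (5.71%), against 4.01% of 7772 windows of genes with a probe present on the 6 wild type and Wip1-/- arrays and 2.26% of all 32851 windows. The cyclic AMP response letters TGACGTCA occur in 1 member window, of Sphk2 (2.86%, against 3.46% and 1.79%), and CCAAT on either strand in 18 (51.4%, against 38.5% and 37.4%). A match of letters is not evidence of binding.

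The other genes of the replication origin and helicase list were lower in the group labelled Wip1-/- Atm+/- more often than higher. Against wild type 11 of 20 tested fell and 1 rose, with a median log2 difference of -0.48. Of the 20, 15 were detected on all 3 arrays labelled Wip1-/- Atm+/-. Mcm3 and Timeless, counted among the 11, were not, and passed the detection filter through the other arrays. Over all 18867 probes tested 28.1% were called in this comparison, 14.8% lower and 13.3% higher, with a median of -0.06. In Wip1-/- against wild type 1 of the 20 rose and 0 fell. The list was chosen with Mcm2 and earlier results of these data in view, so its direction is a description, and the genes of this and the other lists were named after their values were seen.

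Orc6, part of the origin recognition complex, had a log2 level of 7.68 ± 0.08 in the group labelled Wip1-/- Atm+/-, against 9.11 ± 0.16 in wild type (SD, n = 3 each, limma adjusted p = 4.76e-06), and 9.34 ± 0.04 in Wip1-/-. Mcm6, which sits in the same ring as Mcm2, had 7.19 ± 0.17 against 8.39 ± 0.14 in wild type (limma adjusted p = 0.000149), and Mcm5 and Mcm10 fell by 0.55 and 0.50. Gins2, a helicase subunit, fell by 1.03, and the single-strand binding proteins Rpa2 and Rpa3 fell by 1.07 and 0.99. The origin factors Cdc6 and Orc5 fell by 0.57 and 0.45. Mcm3 and the fork protein Timeless were detected on 6 of the 9 arrays. In the group labelled Wip1-/- Atm+/- they lay near background, at 4.92 ± 0.32 and 5.20 ± 0.18. Their differences of -0.93 and -0.83 are therefore limited by background and do not size a fall. Gins1 went the other way, with 8.16 ± 0.53 in the group labelled Wip1-/- Atm+/- and 7.07 ± 0.30 in wild type (limma adjusted p = 0.00573). Mcm7, Gins4, Rpa1 and Tipin did not pass the test, with differences of -0.28, -0.00, 0.08 and 0.11, and neither did Cdt1, Pcna, Gins3 and Orc1, with -0.47, -0.44, -0.20 and -0.11. Mcm4, Cdc45, Gmnn and Orc2 were undetected on all 9 arrays.

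Genes of a mitotic cell cycle list, spermatogonial markers and spermatocyte markers also fell more often than they rose. Of 19 mitotic cell cycle genes tested, 9 fell and 1 rose in the group labelled Wip1-/- Atm+/- against wild type, with a median of -0.40. Kif11, counted among those that fell, was detected on 6 arrays and lay near background in that group, at 5.08 ± 0.18. Kif23, a mitotic kinesin, had 8.82 ± 0.20 against 11.30 ± 0.15 in wild type (limma adjusted p = 2.9e-07), and Ccnd2, a cyclin of entry into the cycle, rose to 7.45 ± 0.12 against 5.51 ± 0.31 in wild type. Of 7 spermatogonial markers tested 6 fell and 0 rose, with a median of -0.82 and linear sums of 897 to 1001 in the group labelled Wip1-/- Atm+/-, 2333 to 2562 in Wip1-/- and 1884 to 2103 in wild type. Dazl had 8.03 ± 0.27 against 9.66 ± 0.29 in wild type, Kit had 6.82 ± 0.19 against 7.64 ± 0.22, and Dmrt1, Crabp1 and Nanos3 were undetected on all 9 arrays. Sall4, counted among those that fell, was detected on 6 arrays and lay near background in the group labelled Wip1-/- Atm+/-, at 5.18 ± 0.08. Spermatocyte markers summed to 38525 to 39923 in the group labelled Wip1-/- Atm+/-, 49641 to 51897 in Wip1-/- and 41952 to 43037 in wild type, and 5 of 12 fell and 0 rose, with a median of -0.07, against -0.06 over all probes. The part of these cells in the levels of Mcm2, Pclaf and Cdca7 was not tested.

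Another 3 members encode protease inhibitors or a ligand. Cstdc3 is a cystatin-domain gene, of a family that blocks cysteine proteases. On the arrays labelled Wip1-/- Atm+/- its detection p-values were 0.814 to 0.997. Its probe (ILMN_1260095, chromosome 16) gave signals of 73.6, 73.1 and 77.4 on the arrays labelled Wip1-/- Atm+/-, 666, 680.5 and 583 on Wip1-/- arrays and 851, 939.7 and 1611 on wild type arrays. The 3 genotypes did not overlap, and 1 wild type array stood well above the other 2. The level was at least 21.5-fold lower than in wild type and at least 10.7-fold lower than in Wip1-/-. Within the 6 arrays of Wip1-/- and wild type, Cstdc3 was lower in Wip1-/-, with a log2 difference of -1.01 ± 0.21 (SE, n = 3 each, limma adjusted p = 0.00767) that was -0.72 without wild type replicate 3. The stefin A genes on this chromosome are close copies of each other, so reads by this probe of another copy were not tested.

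The rest of the cystatin family did not share the pattern of Cstdc3. Of 9 other members tested in the group labelled Wip1-/- Atm+/- against wild type, 3 rose and 0 fell, and 12 were undetected on all 9 arrays. The count that fell was 1 with no background correction, with scaling by the median and in the authors' processed values. Cstb, the widely expressed stefin B, had a log2 level of 9.06 ± 0.17 in the group labelled Wip1-/- Atm+/- and 7.82 ± 0.25 in wild type (limma adjusted p = 8.56e-05), and Cst3 and Cst12 also rose. Stfa1, the gene next to Cstdc3, had 6.19 ± 0.12 in the group labelled Wip1-/- Atm+/-, 5.59 ± 0.09 in Wip1-/- and 6.43 ± 0.29 in wild type. It fell in Wip1-/- (limma adjusted p = 0.00393) and did not pass the test in the group labelled Wip1-/- Atm+/- (limma adjusted p = 0.263). In Wip1-/- against wild type Cstl1 and Csta3 fell as well, so 3 of the 9 fell and 0 rose there.

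Guca2b encodes uroguanylin, the peptide that switches on guanylyl cyclase C in the gut and kidney. Its probe (ILMN_2744846, chromosome 4) gave signals of 99.1, 76.9 and 73.5 on the arrays labelled Wip1-/- Atm+/-, 467, 392 and 402 on Wip1-/- arrays and 239.7, 256 and 287 on wild type arrays. Every Wip1-/- array lay above every wild type array, and both lay above 2 times the highest of the arrays labelled Wip1-/- Atm+/-. Guca2b was higher in Wip1-/- than in wild type, by 0.61 ± 0.13 (SE, n = 3 each, limma adjusted p = 0.0108), a call lost without Wip1-/- replicate 1 (0.55). In the group labelled Wip1-/- Atm+/- it was at least 4.17-fold lower than in wild type and at least 6.35-fold lower than in Wip1-/-. Guca2a, which encodes the sister peptide guanylin and is the next gene on the chromosome, went the other way in Wip1-/-, with 5.22 ± 0.04 against 6.16 ± 0.40 in wild type (limma adjusted p = 0.0103). In the group labelled Wip1-/- Atm+/- Guca2a had 5.79 ± 0.33 (limma adjusted p = 0.202 against wild type). The receptor gene Gucy2c and the exchanger Slc9a3 were undetected on all 9 arrays. The chloride channel gene Cftr, a downstream effector of guanylin in the gut, fell to 6.66 ± 0.37 in the group labelled Wip1-/- Atm+/-, against 8.12 ± 0.03 in wild type (limma adjusted p = 0.000136), and the kinase gene Prkg1 rose.

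Spint1 encodes a Kunitz inhibitor of cell-surface serine proteases such as the activator of hepatocyte growth factor. Its probe (ILMN_1237186, chromosome 2) gave signals of 129, 107 and 111 on the arrays labelled Wip1-/- Atm+/-, 404, 333 and 340.2 on Wip1-/- arrays and 318, 302 and 319 on wild type arrays. Wip1-/- and wild type overlapped, at a log2 difference of -0.04 ± 0.13 (SE, n = 3 each, limma adjusted p = 0.857). In the group labelled Wip1-/- Atm+/- the level was at least 5.31-fold lower than in wild type and at least 5.17-fold lower than in Wip1-/-. Of the proteases and ligands around it, St14, Hgf, Met, Tmprss2 and Hpn were undetected on all 9 arrays, and the 2 list members tested, Spint5 and Prss8, did not pass the test in the group labelled Wip1-/- Atm+/- against wild type.

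Mitochondrial proteins make up another set of members. Abhd10 is a mitochondrial hydrolase that removes acyl groups from proteins, Gfm2 is the elongation factor that recycles mitochondrial ribosomes, and Hspd1 is the chaperonin of the mitochondrial matrix. Abhd10 (ILMN_2579504, chromosome 16) gave signals of 123, 104 and 109 on the arrays labelled Wip1-/- Atm+/-, 792, 679.7 and 675 on Wip1-/- arrays and 822, 596 and 688 on wild type arrays. The arrays labelled Wip1-/- Atm+/- lay far below the rest, at a level at least 13.3-fold lower than in wild type and at least 12.1-fold lower than in Wip1-/-. Wip1-/- and wild type overlapped, with a log2 difference of -0.14 ± 0.13 (SE, n = 3 each, limma adjusted p = 0.502). The 3 other Abhd10 probes on the array were detected nowhere. Of 15 other abhydrolase genes tested in the group labelled Wip1-/- Atm+/- against wild type 2 rose and 3 fell, against 13.3% and 14.8% of all probes. Abhd17c, counted among those that fell, was detected on 7 arrays and lay near background in that group, at 5.38 ± 0.31.

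Gfm2 is covered by a pair of probes on chromosome 13 that both met the rule. The first, ILMN_2734856, gave signals of 129.8, 112 and 113 on the arrays labelled Wip1-/- Atm+/-, 338, 326 and 309 on Wip1-/- arrays and 269, 259 and 290.1 on wild type arrays. The second, ILMN_2734855, gave signals of 117, 102 and 98 on the arrays labelled Wip1-/- Atm+/-, 256, 243 and 257 on Wip1-/- arrays and 235, 201 and 246 on wild type arrays. Both were dim on the arrays labelled Wip1-/- Atm+/-, and in Wip1-/- against wild type they differed by 0.04 ± 0.11 and -0.11 ± 0.13 (SE, n = 3 each, limma adjusted p = 0.838 and 0.604). Nsa2, the next gene, did not pass the test in the group labelled Wip1-/- Atm+/- against wild type, at a difference of -0.07 (limma adjusted p = 0.706).

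Hspd1 (ILMN_2639036, chromosome 1) gave signals of 112, 97.9 and 93.3 on the arrays labelled Wip1-/- Atm+/-, 240.1, 236 and 199.6 on Wip1-/- arrays and 171, 144 and 172 on wild type arrays. It was higher in Wip1-/- than in wild type, by 0.46 ± 0.12 (SE, n = 3 each, limma adjusted p = 0.0239). This call rests on few arrays and was lost without Wip1-/- replicate 1, 2 or 3 (0.44, 0.46 and 0.49) or wild type replicate 2 (0.35). Its second probe, ILMN_2713841, was bright everywhere and is described with the other probes.

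A set of 4 members makes or uses small molecules. Gss encodes glutathione synthetase, the last step of glutathione synthesis, and 3 of its 4 probes on the array met the rule. They read the same gene on chromosome 2 and are not independent. ILMN_2667909 gave signals of 109.6, 109.7 and 106 on the arrays labelled Wip1-/- Atm+/-, 238, 218 and 188 on Wip1-/- arrays and 262, 218 and 227 on wild type arrays. ILMN_1227649 gave signals of 114, 90.7 and 79.9 on the arrays labelled Wip1-/- Atm+/-, 204, 211 and 197 on Wip1-/- arrays and 210.2, 205 and 164 on wild type arrays. ILMN_2818895 gave signals of 112, 103 and 104 on the arrays labelled Wip1-/- Atm+/-, 214, 169 and 169 on Wip1-/- arrays and 177, 221 and 173 on wild type arrays. All 3 were low on the arrays labelled Wip1-/- Atm+/- and differed less in Wip1-/- against wild type. The first of them was lower in Wip1-/-, at -0.54 ± 0.14 (SE, n = 3 each, limma adjusted p = 0.0237), a call lost without Wip1-/- replicate 2 or 3 (both -0.50) or wild type replicate 1 (-0.44), and with scaling by the median (-0.36). The other 2 had differences of the same sign that did not pass, -0.18 ± 0.19 and -0.42 ± 0.21 (SE, limma adjusted p = 0.544 and 0.184). The fourth Gss probe was detected on no array. Acss2, separated from Gss by 1 gene, fell to 9.61 ± 0.02 in the group labelled Wip1-/- Atm+/-, against 10.09 ± 0.10 in wild type (limma adjusted p = 0.00646).

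Sphk2, a sphingosine kinase, gave signals of 113, 113 and 101 on the arrays labelled Wip1-/- Atm+/-, 180.3, 210.3 and 184 on Wip1-/- arrays and 191, 178 and 158 on wild type arrays at the member probe ILMN_2639777. Mat2b and Nadsyn1, named after their values were seen, serve the synthesis of the methyl donor S-adenosylmethionine and of NAD. In wild type they gave 148, 148 and 155 for Mat2b and 194, 194 and 160.5 for Nadsyn1, not far above the arrays labelled Wip1-/- Atm+/-. The member probes of all 3 genes overlapped between Wip1-/- and wild type. Another Nadsyn1 probe, ILMN_2592767, was lower in Wip1-/-, at 5.77 ± 0.15 against 6.47 ± 0.34 in wild type (SD, limma adjusted p = 0.0191). The remaining Nadsyn1 probe, ILMN_2853739, did not pass, at a difference of 0.15 (limma adjusted p = 0.684).

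Other members act on RNA, on protein turnover or on traffic in the cell. Elavl2, an RNA-binding protein of neurons and germ cells, gave signals of 105, 109 and 99.6 on the arrays labelled Wip1-/- Atm+/-, 225, 227 and 192 on Wip1-/- arrays and 169, 152 and 189 on wild type arrays. Pusl1, related to pseudouridine synthases, gave signals of 103, 79.8 and 100.2 on the arrays labelled Wip1-/- Atm+/-, 225, 226 and 214 on Wip1-/- arrays and 233, 197 and 193 on wild type arrays. Hectd2, a HECT-type ubiquitin ligase, gave signals of 128, 108 and 113 on the arrays labelled Wip1-/- Atm+/-, 229, 214 and 209 on Wip1-/- arrays and 219, 221 and 204 on wild type arrays. Wip1-/- and wild type overlapped in Elavl2 and Pusl1, and in Hectd2 their normalized levels did not, with a difference of -0.31 ± 0.13 (SE, n = 3 each, limma adjusted p = 0.128). U2surp, a protein of the U2 spliceosome particle, had bounds of 1.89 against wild type and 2.02 against Wip1-/-. Tnpo1, an importer of nuclear proteins, and Snx16, an endosomal sorting nexin, were named after their values were seen, and their differences between Wip1-/- and wild type were 0.02 and -0.03. Of 13 autophagy conjugation genes tested, a list for the traffic of membranes, 0 rose and 2 fell in the group labelled Wip1-/- Atm+/- against wild type. Over all probes tested 13.3% rose and 14.8% fell. Atg3 fell to 6.20 ± 0.51 in the group labelled Wip1-/- Atm+/-, against 9.15 ± 0.19 in wild type (limma adjusted p = 5.53e-06). In Wip1-/- it had 9.39 ± 0.36. Atg4d, counted among those that fell, was detected on 6 arrays and lay near background in that group, at 5.21 ± 0.08.

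Armc9 is a protein of the ciliary base. Its member probe (ILMN_2595651, chromosome 1) gave signals of 121, 104 and 109.6 on the arrays labelled Wip1-/- Atm+/-, 158, 157 and 136 on Wip1-/- arrays and 164, 152 and 173 on wild type arrays. Its normalized levels lay highest in wild type and lowest on the arrays labelled Wip1-/- Atm+/-, without overlap. At this dim probe Wip1-/- was lower than wild type, with a log2 difference of -0.58 ± 0.11 (SE, n = 3 each, limma adjusted p = 0.00559). The brighter Armc9 probes ILMN_3099741 and ILMN_2647391 did not pass there, at -0.10 and -0.29 (limma adjusted p = 0.582 and 0.181). Neither did the dim ILMN_2695415, at 0.40 (limma adjusted p = 0.284). Sall3, a zinc finger transcription factor on chromosome 18, gave signals of 95.7, 80.5 and 77.9 on the arrays labelled Wip1-/- Atm+/-, 257, 240.4 and 215 on Wip1-/- arrays and 179.5, 175 and 186 on wild type arrays. Its Wip1-/- arrays all lay above wild type, at 0.29 ± 0.11 (SE, n = 3 each, limma adjusted p = 0.0787), a difference that passed with scaling by the median (0.49), with cyclic loess (0.35) and among probes present on the 6 arrays alone (0.29). Myl1, the fast skeletal myosin light chain, gave signals of 128, 102 and 110.2 on the arrays labelled Wip1-/- Atm+/-, 197, 210.2 and 194 on Wip1-/- arrays and 199.8, 202 and 220.5 on wild type arrays. Its difference of -0.41 ± 0.14 (SE, n = 3 each, limma adjusted p = 0.0603) did not pass, and did pass without replicate 2 of the group labelled Wip1-/- Atm+/- or among probes present on the 6 arrays alone (both -0.41).

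The remaining members are Scyl3, a pseudokinase, Ccny, a membrane-bound cyclin, Nalcn, a sodium leak channel, the zinc finger gene Zfp110, Sh3bgrl2, and the clone identifiers 4930405J17Rik and 4930473A02Rik. All but Scyl3 were named after their values were seen. 4930473A02Rik (ILMN_2549002, chromosome 2) gave signals of 122, 103 and 101 on the arrays labelled Wip1-/- Atm+/-, 426, 468 and 416 on Wip1-/- arrays and 381, 366 and 407 on wild type arrays. 4930405J17Rik (ILMN_2485365, chromosome 10) gave signals of 97.5, 83.8 and 76.2 on the arrays labelled Wip1-/- Atm+/-, 258, 259.6 and 246 on Wip1-/- arrays and 356, 395 and 428 on wild type arrays. The clone on chromosome 2 overlapped between Wip1-/- and wild type, and the clone on chromosome 10 did not. 4930405J17Rik had the lowest difference of all members in Wip1-/- against wild type, -1.12 ± 0.12 (SE, n = 3 each, limma adjusted p = 0.000347). Scyl3, Ccny, Nalcn, Zfp110 and Sh3bgrl2 all overlapped between Wip1-/- and wild type and had bounds against wild type of 2.35, 1.92, 1.68, 1.93 and 1.62. The signals of these 5 probes and those of Tnpo1, Snx16, U2surp, Mat2b and Nadsyn1 ran from 90.8 to 128 on the arrays labelled Wip1-/- Atm+/-, 156 to 277 on Wip1-/- arrays and 139 to 219 on wild type arrays.

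In Wip1-/- against wild type, the comparison the rule did not use, the members changed about as often as other probes. Of the 32 probes 6 were called (18.75%), against 17.6% of all 18867 probes tested and 18.2% of 12336 probes present on the 6 arrays (8.53% higher and 9.7% lower). The member probes of Guca2b and Hspd1 rose, where 9.57% of all probes did. Those of Cstdc3, Armc9 and 4930405J17Rik and 1 Gss probe fell, where 8.05% did. The count that rose was 0 without Wip1-/- replicate 1, and 1 without Wip1-/- replicate 2 or 3 or wild type replicate 2. With scaling by the median 4 rose and 3 fell, and the median difference was 0.11, against 0.09 over all probes. The levels of Wip1-/- and wild type did not overlap in 9 of 32 probes (28.12%), against 36.6% of all probes. The differences ran from -1.12 to 0.61 with a median of -0.04, against 0.02 over all probes, and 13 were positive and 19 negative. Their median size was 0.17, against 0.22 for the probes present on the 6 arrays. Of the members not given above, the differences were 0.24 in Sh3bgrl2, 0.23 in Elavl2, 0.20 in Mat2b, 0.16 in Ccny and in Zfp110, and 0.10 in U2surp. They were -0.17 in Scyl3 and in Pusl1, -0.15 in Nalcn, -0.11 in Sphk2 and -0.07 in Nadsyn1. The 95% intervals were wide against these sizes, from -0.08 to 0.55 for Elavl2 and from -0.49 to 0.27 for Sphk2.

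For 18 of the 29 genes the array carries other probes, 37 in all, which did not meet the rule. In 7 genes at least 1 other probe was detected on all 3 arrays labelled Wip1-/- Atm+/-, so the gene's RNA was measured there at another stretch. These were Hectd2, Elavl2, Hspd1, Scyl3, Sphk2, U2surp and Armc9, with 10 such probes. In 6 of the 10 the arrays labelled Wip1-/- Atm+/- lay below wild type without overlap, and in 0 they lay above without overlap. Of 15163 probes tested and detected on all 3 of those arrays, 22.5% lay below wild type without overlap and 21.4% lay above. The 6 probes belong to 5 genes, so they are not all independent. All 10 read genes that were chosen for low values on these same arrays, so the counts are a description with no test. In 3 genes, Spint1, Nadsyn1 and Sh3bgrl2, other probes were detected on some arrays but not on all 3 labelled Wip1-/- Atm+/-. In 8 genes the other probes were detected on no array, and 21 of the 37 probes were detected nowhere. The other 11 genes have a member probe or probes only. Levels of different probes of a gene are not set against each other.

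Elavl2 and Hectd2 had second probes that were lower too. For Elavl2 ILMN_3121717 gave signals of 136, 134 and 124 on the arrays labelled Wip1-/- Atm+/-, 351, 294 and 306 on Wip1-/- arrays and 244, 228 and 246 on wild type arrays. For Hectd2 ILMN_2839877 gave signals of 282, 284 and 271 on the arrays labelled Wip1-/- Atm+/-, 549, 466 and 468 on Wip1-/- arrays and 471, 464 and 554 on wild type arrays. In both the arrays labelled Wip1-/- Atm+/- lay below all others, at log2 levels of 5.84 ± 0.19, against 7.66 ± 0.19 in Wip1-/- and 7.42 ± 0.01 in wild type, for Elavl2. The Hectd2 levels were 7.84 ± 0.15, against 8.49 ± 0.14 in Wip1-/- and 8.73 ± 0.13 in wild type. Scyl3 had the same order at a pair of probes, 6.33 ± 0.45 against 7.15 ± 0.33 in wild type at ILMN_1235616 and 6.07 ± 0.18 against 6.64 ± 0.14 at ILMN_2588521.

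Sphk2, Armc9 and Hspd1 had second probes that differed little between the group labelled Wip1-/- Atm+/- and wild type. Against Wip1-/- that group differed by -0.40 at the Hspd1 probe ILMN_2713841 and by 0.42 at the Armc9 probe ILMN_2647391. Sphk2 gave signals of 622, 603 and 574 on the arrays labelled Wip1-/- Atm+/-, 807, 794 and 687 on Wip1-/- arrays and 799.5, 757 and 791 on wild type arrays at ILMN_2718789, whose log2 levels were 9.25 ± 0.10, 9.23 ± 0.03 and 9.44 ± 0.01 in the same order. At ILMN_2718789 the group labelled Wip1-/- Atm+/- lay below wild type without overlap, so this probe is among the 6 counted above. At ILMN_2718791 the Sphk2 levels in the group labelled Wip1-/- Atm+/- and wild type overlapped. The brighter Armc9 probe, ILMN_3099741, had 9.75 ± 0.01 in the group labelled Wip1-/- Atm+/- and 9.74 ± 0.14 in wild type, and its other detected probe had 7.52 ± 0.16 and 7.39 ± 0.09. Hspd1 gave signals of 339, 300.3 and 283 on the arrays labelled Wip1-/- Atm+/-, 467, 512 and 453 on Wip1-/- arrays and 393, 297 and 395 on wild type arrays at ILMN_2713841, where the group labelled Wip1-/- Atm+/- and wild type overlapped. U2surp lay between, with 9.04 ± 0.13 in the group labelled Wip1-/- Atm+/- against 9.47 ± 0.20 in wild type at ILMN_1252490.

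The members' promoters were mostly rich in CpG, the dinucleotide that carries DNA methylation, as were those of other expressed genes. The CpG count over the count that base composition gives had a median of 0.78 in the 35 member windows, against 0.75 in windows of genes with a probe present on the 6 wild type and Wip1-/- arrays and 0.38 in all windows. Gfm2 and Guca2b are shown as opposite cases, with each CpG in capitals. Their windows lie at chr13:97137687-97137986 on the plus strand and chr4:119658896-119659195 on the minus strand in GRCm38.p6.
Gfm2: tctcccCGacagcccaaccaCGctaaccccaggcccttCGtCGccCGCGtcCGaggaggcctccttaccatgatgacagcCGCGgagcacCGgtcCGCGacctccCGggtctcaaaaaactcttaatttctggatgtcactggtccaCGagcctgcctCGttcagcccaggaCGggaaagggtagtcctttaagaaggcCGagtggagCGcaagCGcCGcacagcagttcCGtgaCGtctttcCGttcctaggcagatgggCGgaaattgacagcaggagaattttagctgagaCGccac
Guca2b: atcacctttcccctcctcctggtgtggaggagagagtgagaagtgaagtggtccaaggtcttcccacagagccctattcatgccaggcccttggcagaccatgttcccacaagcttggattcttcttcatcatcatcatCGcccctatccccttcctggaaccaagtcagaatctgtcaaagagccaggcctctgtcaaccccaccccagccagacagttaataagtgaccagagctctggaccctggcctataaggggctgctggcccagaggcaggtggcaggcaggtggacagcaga
Gfm2 holds 25 CpGs, at a ratio of 0.93, and Guca2b holds 1, at 0.04. The 2 windows of Cstdc3 have ratios of 0.00 and 0.13. The window of Abhd10 has a ratio of 0.85. DNA methylation itself was not measured here.

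The 29 genes lie on 14 chromosomes. Chromosome 2 holds 6 member probes of 4 genes (18.75% of probes, against 7.849% of the probes present on the 6 arrays), 3 of them probes of Gss, and chromosome 1 holds 4. None lies on X, where 2.359% of the present probes lie. No pair of member genes had 10 or fewer genes between them in the gene table. The nearest measured genes on either side, 50 in all, were called lower in the group labelled Wip1-/- Atm+/- against wild type in 9 cases and higher in 8, with a median difference of -0.15 against -0.06 over all probes. Mrps26, a mitochondrial ribosomal protein gene next to 4930473A02Rik, fell to 7.45 ± 0.03 in the group labelled Wip1-/- Atm+/-, against 9.19 ± 0.14 in wild type (limma adjusted p = 4.52e-06). Cd96, a lymphocyte receptor gene separated from Abhd10 by 6 genes, fell to 7.46 ± 0.26, against 10.06 ± 0.33 in wild type (limma adjusted p = 1.36e-06). Dbp, next to Sphk2, rose to 8.18 ± 0.10, against 6.98 ± 0.05 in wild type. Tmprss7, on the other side of Abhd10 and counted among the 9, lay near background in the group labelled Wip1-/- Atm+/-. Its levels were 4.80 ± 0.15 there and 5.54 ± 0.17 in wild type. Dipk2a, counted among the 8, lay near background in wild type, at 5.17 ± 0.21. These neighbours were named after their values were seen.

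The threshold cuts through a run of similar probes. Just inside it were Gfm2 and Spint1, each with a lowest detection p of 0.0513 on the arrays labelled Wip1-/- Atm+/-, and Myl1 with 0.0534. Just outside were Zfp386 with 0.04915, and Relch and Tmem59l with 0.0470 each. Tmem59l gave signals of 131, 96.4 and 113 on the arrays labelled Wip1-/- Atm+/-, 276, 233 and 215 on Wip1-/- arrays and 209.6, 202 and 219.9 on wild type arrays.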

How the data were processed

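Illumina Mouse WG-6 v2.0 arrays measured total RNA of spermatids, 3 per genotype. Each probe and array has a signal intensity without normalization and a detection p-value in the deposited table of scanner values, per the file headers. The sources used here do not give the scanner software or any earlier background step. An alternative used the authors' processed intensity table, which by its values was quantile normalized. Detection p-values without their decimal point (895 cells, none of a member) were divided by 1000. Of 45279 probes, 1697 have blank scanner values in the table used here and stayed out. Genes were named from the platform annotation, and the gene table gave chromosomes and neighbours only, because the files name no build. All 32 member probes matched it by Entrez identifier. Promoters are RefSeq's.

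The neqc function of limma 3.58.1, in R 4.3.3, removed background and normalized the signals (offset 16, which shrinks folds of dim probes). The test covered 18867 probes, those detected at 0.05 in 3 or more of the 9 arrays. A probe undetected in 1 genotype could therefore be tested, and its difference is then limited by background. All arrays entered 1 limma model with a mean for each genotype (6 residual and 5.12 prior degrees of freedom), tested two-sided, with p-values adjusted by Benjamini-Hochberg and called at 0.05. Members were tested only in Wip1-/- against wild type, which the rule did not use. Precision is limited by how few arrays there are. The fit was tested on simulated data.

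The members and gene lists were chosen with earlier results of these data known. The rule for named genes took the 12 members with the highest level in Wip1-/- and wild type, up to 8 called in Wip1-/- against wild type with the largest difference, up to 12 with another probe detected on all 3 arrays labelled Wip1-/- Atm+/-, the 3 probes nearest the threshold on either side, members with at most 10 genes between them, and members of the gene lists, leaving out clone identifiers. Alternatives changed the background step, the scaling, the filter, the thresholds of the rule, the arrays in the fit and the replicate block. Same-numbered arrays of different genotypes had deviations that correlated at -0.33 to 0.28, over 0.1 in 2 of 9 pairs. Both of these joined the group labelled Wip1-/- Atm+/- with Wip1-/-. This does not settle whether the numbers pair the arrays, and the main fit held no pairing.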

Additional observations from a re-analysis of the deposited data

How the results depend on the processing

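Of the values for single members in Wip1-/- against wild type, 518 kept their direction and side of the threshold under the alternatives, 33 moved, 9 lost the call and 6 gained it. Of those that moved, 27 changed sign, 9 of them with scaling by the median. None was a called value, and their differences were 0.17 or less in size. The number of members that rose (2) was 4 with scaling by the median, 1 with 1 probe per gene (22 members then in the fit) and 0 to 2 without single arrays. The number that fell (4) was 3 to 5 without single arrays. The median difference (-0.04) was 0.11 with scaling by the median, which moved the median of all probes to 0.09, and to -0.17 for the group labelled Wip1-/- Atm+/- against wild type. It raised the share of higher among called probes to 70.73%, against 54.3%. The gained calls were Sall3 with scaling by the median, cyclic loess and probes present on the 6 arrays alone (0.49, 0.35 and 0.29), Sh3bgrl2 with scaling by the median (0.42), and Myl1 with those present probes and without replicate 2 of the group labelled Wip1-/- Atm+/- (both -0.41). With the replicate block 2 members rose and 4 fell, at a median of -0.04, so the block changed no count. It is not described as a pairing, since only a shared number is known of these arrays.

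The median lower bound against wild type (2.48) was 1.56 with no background correction, 1.69 in the authors' processed table and 2.30 to 2.67 without single arrays. The rule found 137 probes with presence at a detection p under 0.05, 12 with presence under 0.001, 11 with absence at 0.1 or more, 166 with absence at 0.01 or more, and 32 to 47 without single arrays. Genes with another probe detected on all 3 arrays labelled Wip1-/- Atm+/- (7) numbered 51, 1, 1 and 75 under the same 4 thresholds, and 7 to 14 without single arrays. The fall of 11 replication genes was 9 or 10 without single arrays and 10 to 12 over the scalings, and 6 of 7 spermatogonial markers fell in each. Signal over background limits the dim members, and the cause of these shifts was not tested.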

Other observations

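A further 9 probes with no gene symbol met the same detection rule. The brightest, ILMN_1217084, had a mean scanner signal of 101.7 on the arrays labelled Wip1-/- Atm+/-, 1003 on Wip1-/- arrays and 943 on wild type arrays. Its signals of 124, 96.0 and 84.7 on the arrays labelled Wip1-/- Atm+/- lay below every Wip1-/- and wild type array. The gene it reads is not named here.

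Among the 1593 single-symbol probes whose scanner values are blank, 2 met the rule when presence and absence were read from the authors' processed intensities, on which all 32 members met it too. Aqr, an RNA helicase of the spliceosome, averaged 103.0 on the arrays labelled Wip1-/- Atm+/-, 233 on Wip1-/- arrays and 280.2 on wild type arrays. Spata22, a protein of meiotic recombination, averaged 106.6 on the arrays labelled Wip1-/- Atm+/-, 242 on Wip1-/- arrays and 185 on wild type arrays. Both were chosen by these values, so they carry no test.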
